A study of Aspergillus nidulans with 6 samples.

Results

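The genes described here are those of the filamentous fungus *Aspergillus nidulans* whose response to salt was compared between a strain with the gene *cnaB* and strains without it. For each gene, the log2 ratio of its value with salt to its value without salt was taken in each strain, and the mean ratio of the deletion strains was subtracted from the ratio of the parent. A positive difference therefore means that the ratio was higher in the parent, and a negative difference that it was lower. Of 10957 genes in the files, 7867 had a value of at least 1 in all 6 libraries and were used as members.

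The libraries came from 3 strains, each with and without 800 mM NaCl, with 1 library per group. The parent, TN02A7, carries pyrG89, riboB2, pyroA4, nkuA::argB2 and veA1. WSA08, called Δ*cnaB* here, is labelled with the same alleles and has *cnaB* replaced by *pyrG*. LXA05, called Δ*cnaB*Δ*cchA* or the double deletion, also lacks the calcium channel gene *cchA*, likewise replaced by *pyrG*, and its label names pyrG89, nkuA::argB2 and veA1 but neither riboB2 nor pyroA4. All 3 strains thus share pyrG89, the disrupted *nkuA* (end joining) and veA1, and the deletion strains alone hold a working *pyrG* marker. Cultures were started from conidia, shaken for 18 h at 37°C in a minimal medium that supplies the nutrients these strains need, and then kept for 30 min with or without the added salt. The labels give conidia as the source. The spore coat gene *dewA* was listed at 0 in all 6 libraries, and the conidiation regulator *brlA* at 0 in 3 of 4 deletion libraries. *abaA*, *wetA* and *rodA* were each at 0 in at least 1 library but above 0 in most. The highest value of *abaA* was 3.32, in Δ*cnaB* without salt, and that of *wetA* was 3.12, in the parent without salt. In the parent, *brlA* had 1.69 without and 4.68 with salt, and *rodA* had 14.7 and 1.51. The conidiation gene *vosA* (AN1959) and the spore pigment gene *yA* (AN6635, difference 0.02) were at 1 or above in all 6 libraries. *vosA* was higher with salt in each strain, 4.61-fold in the parent, 3.09-fold in Δ*cnaB* and 2.97-fold in the double deletion. RNA was taken from whole cultures, so a change in the share of a kind of cell and a change of RNA per cell cannot be told apart.

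Calcineurin is a phosphatase that is switched on when calcium enters the cell. Its catalytic subunit acts together with a small calcium-binding regulatory subunit, which *cnaB* encodes in *A. nidulans*. In fungi, the best known target is the zinc-finger transcription factor CrzA, which enters the nucleus once calcineurin has removed its phosphates and then acts on genes such as those for calcium pumps. CchA is the pore of the plasma membrane channel through which calcium enters. High salt also acts through the osmotic stress (HOG) kinase cascade, which leads to the synthesis of glycerol.

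The deleted genes were checked first. *cnaB* (AN6566) had 86.2 TMM-normalized RPM (the reads of a gene per 1000000 reads on all genes, scaled between the libraries of a strain) in the parent without salt and 73.6 with salt, and was listed at 0 in all 4 deletion libraries. The channel gene, named *cch1* in the reference (AN1168), had 74.1 and 136 in the parent without and with salt, 80.7 and 109 in Δ*cnaB*, and 3.56 and 3.96 in the double deletion. Both genes therefore matched the labels. In each library the nonzero values were all multiples of a single step, within a tolerance of 0.05 of that step. If a step is worth 1 read, the libraries held between 41369564 and 50006318 reads, and the counting error of the difference had a median of 0.07 and a maximum of 0.33 on the log2 scale. These totals are larger than the clean reads that the study gives for its libraries, so a step may not stand for a single independent read, and this counting error may be too small. Values below 1 are listed as 0, so genes just outside the rule have no value to show, while the lowest member value was 1.00 (AN0736).

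The deletion strains resembled each other more than either resembled the parent. After removal of the median offset, 2.24% of the members differed by more than 1 (log2) between Δ*cnaB* and the double deletion without salt, and the share with salt was also 2.24%. Between the parent and these strains, 18.3% and 23.6% differed by that much without salt, and 12.5% and 11.2% with salt. The parent library without salt therefore stood farthest from its counterparts. Each of these libraries was made once, so whether this distance belongs to the strain or to the culture cannot be told apart, and no value without that library can be computed.

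A gene was called when its log2 ratio in the parent differed from that in each deletion strain by more than 1 in the same direction, and since each group had 1 library this is a limit on size and not a test. By this limit, 411 genes (5.22% of the members) had a higher ratio in the parent and 428 (5.44%) a lower one. The median difference over all members was 0.04, with quartiles of −0.34 and 0.42 and extremes of −4.30 (AN8218) and 5.38 (AN5170). The salt ratios of the deletion strains differed from each other by a median of 0.21 (246 genes by more than 1), and those of the parent differed from them by 0.39 for Δ*cnaB* (1232 genes) and 0.41 for the double deletion (1200 genes). In the test of the interaction between salt and *cnaB* with limma, which treats the deletion strains as repeats of a culture without *cnaB*, 422 genes (5.36%) had a higher and 396 (5.03%) a lower ratio in the parent at a Benjamini-Hochberg adjusted p under 0.05. Of the genes called by size, 306 of 411 and 323 of 428 also passed this test. The fit had 1 residual degree of freedom and a single pair of parent libraries, so its p-values measure only the spread between the deletion strains, borrowed across genes. The test depended on its settings: without a trend of the variance with the level the counts were 55 and 94, and on log2(value + 1) over genes of at least 1 in any library limma called 0 in either direction (1097 and 1109 at an unadjusted p under 0.05).

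**Figure D1:**
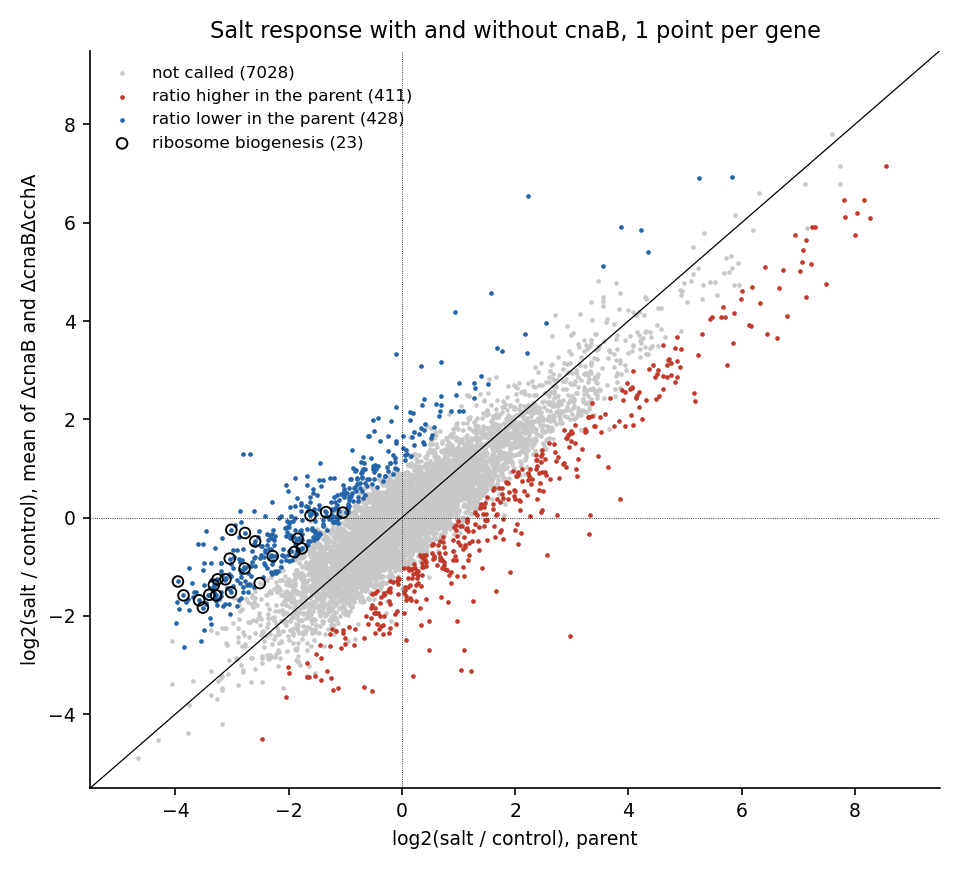
Log2 ratio of salt to control in the parent (x axis) against the mean ratio of the deletion strains (y axis), 1 point per member gene. The 411 genes with a higher ratio in the parent lie below the diagonal and the 428 with a lower ratio above it, and the 23 ribosome biogenesis genes (circles) all lie above it on the left.

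Most calls were responses of the parent that were smaller or missing in the deletion strains. Of the 411 genes with a higher ratio in the parent, 237 (57.7%) were induced in the parent by more than 1 and had a median ratio of 2.87 there against 1.19 in the deletion strains. A further 122 were repressed in the deletion strains by more than 1 with a median of −1.77, against −0.21 in the parent. Of the 428 with a lower ratio in the parent, 285 (66.6%) were repressed in the parent, with a median of −2.28 against −0.58, and 83 were induced in the deletion strains, with a median of 1.90 against 0.30. In 10 genes of the first direction and 3 of the second the parent and the mean of the deletion strains passed 1 in opposite directions, and 42 and 57 passed it in neither. The same ratios defined the calls, so a gap of more than 1 between the medians of parent and deletion strains follows from the choice alone.

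The levels of the called genes were also set side by side without and with salt. The difference used for the calls is the gap between parent and deletion strains with salt minus that without salt, so a called gene had to differ in at least one condition, and genes called higher tend to start lower in the parent, and genes called lower to start higher, by the choice alone. The values are therefore a description. After removal of the median offset, the parent was farther from the deletion strains without salt than with it for 344 of the 411 and 320 of the 428 called genes. Over all members this held for 4938 of 7867, so it is not particular to the called genes. In the genes called higher the median of parent minus deletion strains was −1.32 (log2) without salt and 0.21 with salt. In those called lower the medians were 1.38 and −0.28. Over all members these medians were 0.28 and 0.26, and since each strain was normalized separately, levels compared across strains carry this offset. Relative to that offset, 241 and 222 genes of these directions differed by more than 1 only without salt, 37 and 62 only with salt, 61 and 36 in both and 72 and 108 in neither. This split was chosen after the values were seen.

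**Figure D2:**
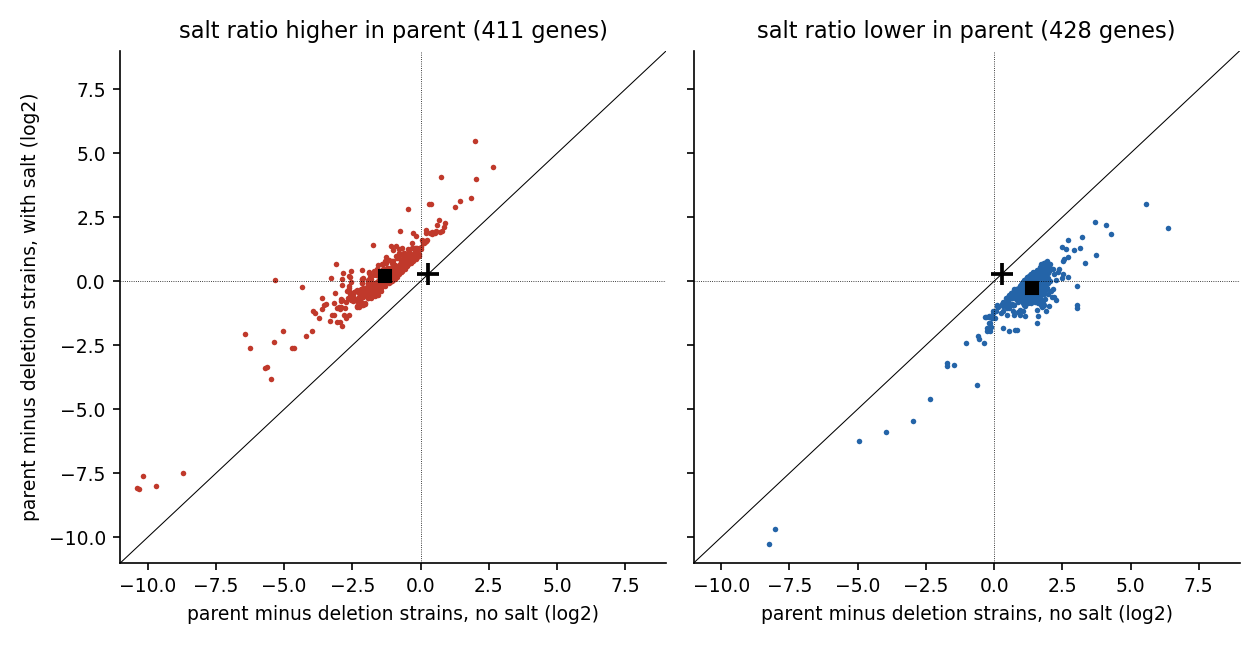
Difference between the parent and the mean of the deletion strains (log2) without salt (x axis) and with salt (y axis) for the genes called higher (left, 411) and lower (right, 428) in the parent. The black square is the median of the called genes, at −1.32 and 0.21 on the left and 1.38 and −0.28 on the right, and the cross is the median of all members.

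The list with the most called members held genes for ribosome assembly. The reference gives a symbol to 733 members, and 34 lists of symbols were drawn up, of which 33 had a member. The lists were chosen with earlier results of these data known, so the counts in them are a description. All 23 members of the ribosome biogenesis list had a lower salt ratio in the parent, and 20 of 23 were called lower, against 5.44% of all members. That share depended on the level of the genes, from 1.78% to 9.10% in 4 groups of members ordered by level. The median difference of the 23 genes was −1.74, from −2.76 to −1.14, against 0.04 over all members. With limma, 19 had an adjusted p under 0.05. In the parent the median log2 ratio was −3.01, and all 23 were below −1. The median was −0.81 in Δ*cnaB*, where 9 were below −1, and −1.12 in the double deletion, where 13 were.

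The members of this list had their highest values in the parent without salt. The lowest, the median and the highest were 24.3, 46.7 and 407 in the parent without salt and 1.86, 9.08 and 50.3 with it. They were 9.54, 18.7 and 184 in Δ*cnaB* without salt and 3.83, 13.5 and 65.0 with it, and 6.80, 15.6 and 154 in the double deletion without salt and 1.91, 9.06 and 52.9 with it. Without salt, the parent exceeded both deletion strains in 23 of 23 genes, by a median of 2.89-fold (2.12 to 3.53). With salt, it was above both in 4 genes, between them in 9 and below both in 10, with a median of 0.80-fold.

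**Figure D3:**
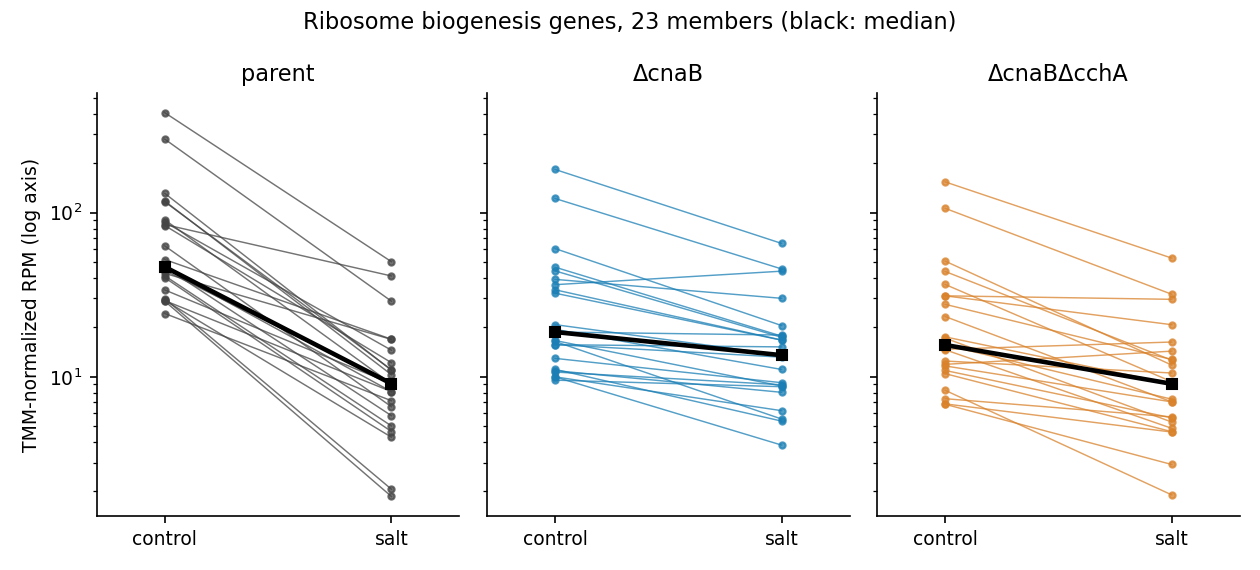
TMM-normalized RPM (log axis) of the 23 ribosome biogenesis genes in the libraries without and with salt of each strain, 1 line per gene and the median in black. The parent median goes from 46.7 to 9.08, that of Δ*cnaB* from 18.7 to 13.5 and that of the double deletion from 15.6 to 9.06.

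Among the RNA helicases of this list, which in yeast unwind the precursor of ribosomal RNA, *dbp9* (AN6374) had the largest difference. Its values without and with salt were 46.7 and 5.79 in the parent, 15.7 and 13.2 in Δ*cnaB*, and 12.5 and 10.5 in the double deletion. The difference was −2.76 against Δ*cnaB* and −2.77 against the double deletion (limma adjusted p = 0.0116). The parent was above both deletion strains without salt and below both with it. The helicases *rok1* (AN0944), *spb4* (AN3176), *mak5* (AN1750), *rrp3* (AN4233), *dbp4* (AN0589), *has1* (AN1949), *drs1* (AN10125) and *dbp7* (AN0204) had differences of −2.46, −2.27, −2.21, −1.999, −1.86, −1.83, −1.74 and −1.50. The helicase *dbp8* (AN4903) was called at −1.14, but its limma adjusted p was 0.0778.

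Factors that modify ribosomal RNA followed the same pattern. *cbf5* (AN8851), in yeast the enzyme that turns uridines of ribosomal RNA into pseudouridine, had 407 and 50.3 in the parent without and with salt, 184 and 65.0 in Δ*cnaB*, and 154 and 52.9 in the double deletion (difference −1.50, limma adjusted p = 0.0135). *nop58* (AN3167), a core protein of the particles that guide methylation in yeast, had 281 and 28.9, 122 and 45.4, and 106 and 31.8 (−1.70). For both, the 3 strains lay closer together with salt than without it. The methyltransferase gene *spb1* (AN0092) had a difference of −2.11. Genes for assembly of the large subunit in yeast, *loc1* (AN6556), *erb1* (AN1367), *nop7* (AN3827) and *nop12* (AN1452), had −2.65, −1.95, −1.90 and −1.45. Those for the small subunit, *utp10* (AN5455), *lcp5* (AN5340) and *rrp36* (AN6561), had −1.68, −1.66 and −1.41, the last with a limma adjusted p of 0.0622. The 3 members that were not called, *rex4* (AN10955), *dbp3* (AN7424) and *nop9* (AN10618), had −1.20, −1.14 and −1.17 and missed the limit against 1 deletion strain each.

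Of the 45 genes called lower that have a symbol, 20 belong to this list. Others outside it have related roles in yeast and are named here after their values were seen: *sik1* (AN10352, a partner of *nop58*) at −1.57, *mrd1* (AN0421) at −1.96, *noc4* (AN1533) at −1.84 and *pxr1* (AN11066) at −2.20. The protein arginine methyltransferase gene *rmtA* (AN10526) had 80.5 and 7.74 in the parent without and with salt, 33.9 and 12.7 in Δ*cnaB*, and 26.02 and 9.68 in the double deletion, a difference of −1.95. Structural genes of the ribosome had differences near 0. None of 7 ribosomal protein genes was called, which is near the 5.22% called higher and 5.44% called lower of all members. Their median difference was −0.00 (−0.39 to 0.31), and the parent, Δ*cnaB* and the double deletion had median ratios of −0.86, −0.88 and −0.73. Of 9 genes in the translation factor list, 1 was called lower (5.44% of all members were). This was *trm8* (AN10451, −1.25), part of a tRNA methyltransferase in yeast and not itself a translation factor. It had 28.6 and 18.8 in the parent, 11.99 and 18.9 in Δ*cnaB*, and 10.2 and 15.8 in the double deletion. The list also holds *trm82*, *cpcA* and *cpcB*. The initiation factor genes *tif1*, *tif32*, *tif34*, *tif35* and *nip1* were not called, with differences from −0.47 to 0.15.

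The calcium list had 7 members, of which 2 were called lower, against 5.44% of all members, and none higher. Its median difference was 0.05, and its called genes were both calcium pumps. *pmcA* (AN1189), related to the vacuolar calcium ATPase of yeast, had 102 and 20.8 in the parent without and with salt, 8.93 and 14.2 in Δ*cnaB*, and 11.6 and 11.4 in the double deletion. The parent value without salt was 9.94-fold the mean of the deletion strains, and with salt 1.63-fold. The difference was −2.96 against Δ*cnaB* and −2.27 against the double deletion (limma adjusted p = 0.0157). Its relative *pmcB* (AN4920) had 22.0 and 33.5 in the parent, 4.87 and 34.2 in Δ*cnaB*, and 7.54 and 26.3 in the double deletion. Here the strains were apart without salt and alike with it, so that induction was larger in the deletion strains, by −2.21 and −1.19 (limma adjusted p = 0.0641). The third pump gene of this kind, *pmcC* (AN8399), had a difference of 0.18.

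The calcineurin target *crzA* (AN5726) had 62.7 and 91.8 in the parent, 87.4 and 63.4 in Δ*cnaB*, and 101 and 75.3 in the double deletion. Its ratio was above 0 in the parent and below 0 in both deletion strains. The difference, 1.01 against Δ*cnaB* and 0.97 against the double deletion, missed the limit in the second, while limma gave an adjusted p of 0.0285. The vacuolar channel gene *yvc1* (AN3155) had a difference of −0.68, the channel gene *cch1* 0.58 and its regulator *midA* (AN4897) 0.05, and none of them was called.

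**Figure D4:**
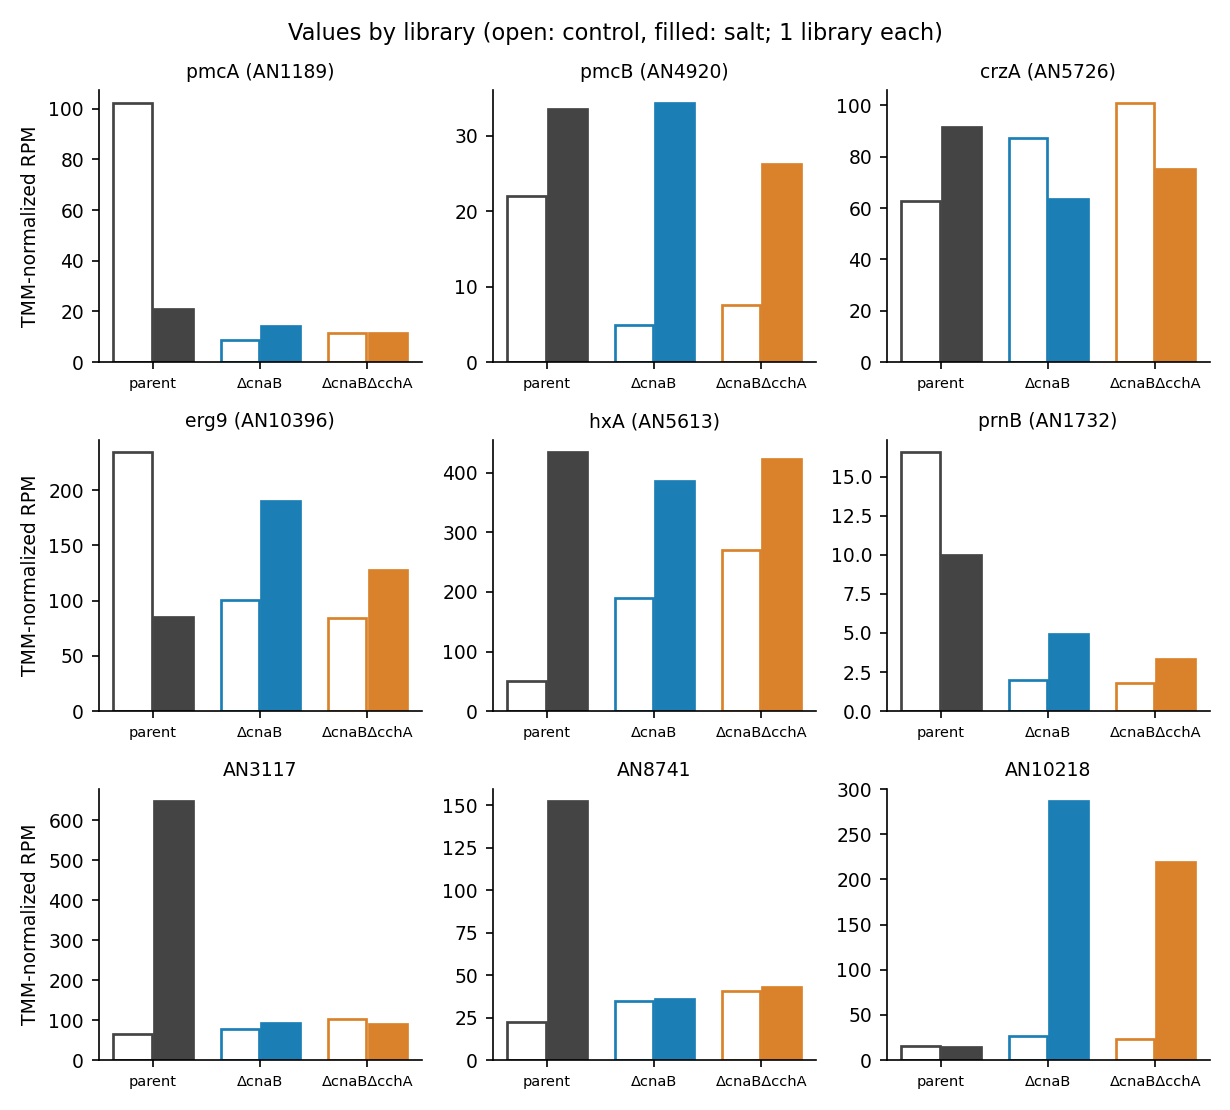
TMM-normalized RPM in each library (open bars without salt, filled bars with salt, 1 library per bar, so there is no error bar) for 9 genes. *pmcA* is high only in the parent without salt (102), *AN3117* and *AN8741* only in the parent with salt (648 and 152), and *AN10218* only in the deletion strains with salt (286 and 219).

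In the sterol list, 2 of 19 members were called lower, near the 5.44% of all members, and none higher, with a median difference of −0.17. *erg9* (AN10396), the gene of squalene synthase at the entry to the sterol branch, had 234 and 85.3 in the parent without and with salt, 101 and 190 in Δ*cnaB*, and 84.2 and 128 in the double deletion. Its ratio was −1.46 in the parent and 0.92 and 0.60 in the deletion strains, a difference of −2.22 (limma adjusted p = 0.0112). *erg6* (AN7146), a sterol methyltransferase gene, was lower with salt in all 3 strains, from 440 to 96.6, from 167 to 79.7 and from 181 to 84.8, a difference of −1.11. The sterol genes *erg2* (AN0451) and *erg5* (AN4042) passed the limma test at −1.10 and −0.99 without reaching the limit against both strains. The members of the list were split, with 7 above 0 and 12 below.

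Sulfur, nucleotide and vitamin genes held single calls. In the sulfur list, 1 of 4 was called lower and all 4 were below 0, with a median of −0.83. Over all members 5.44% were called lower and 3735 of 7867 were below 0, so the single calls in this list and in those for vitamins and mitochondria are near that share or rest on few genes. *met16* (AN4770), in yeast the reductase of activated sulfate, had 276 and 55.6 in the parent, 293 and 294 in Δ*cnaB*, and 380 and 157 in the double deletion. The deletion strains disagreed here, with differences of −2.32 and −1.04 (limma adjusted p = 0.082). The ATP sulfurylase gene *sC* (AN4769) had −0.88. Of 9 purine, pyrimidine and vitamin genes, 1 was called lower, the vitamin B6 gene *pyroA* (AN7725, −1.39), which the labels give as the mutant allele pyroA4 in the parent and Δ*cnaB*. It had 215 and 60.9 in the parent, 122 and 87.1 in Δ*cnaB*, and 135 and 104 in the double deletion. Outside the lists, *cpa1* (AN2243), a carbamoyl phosphate synthase subunit in yeast, and *ura7* (AN3794), the yeast CTP synthase, had −1.80 and −1.84. Of 14 genes for mitochondrial form and import, 1 was called lower, the import motor gene *pam18* (AN4559, −1.29).

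Among genes of nitrogen use, 2 of 14 were called higher and 1 lower, against 5.22% and 5.44% of all members, with a median of 0.33. *hxA* (AN5613), the xanthine dehydrogenase of purine breakdown, had 50.6 and 434 in the parent without and with salt, 189 and 386 in Δ*cnaB*, and 271 and 423 in the double deletion. The strains came to similar values with salt from different values without it, and the difference was 2.26 (limma adjusted p = 0.0116). *hxB* (AN1637), which is needed to make that enzyme active, had 11.8 and 33.2, 17.8 and 19.2, and 21.2 and 18.2, a difference of 1.54. The proline permease gene *prnB* (AN1732) was called lower at −1.85, with 16.5 and 9.99 in the parent, 1.98 and 4.95 in Δ*cnaB*, and 1.77 and 3.37 in the double deletion, so the parent was the highest in both conditions. The nitrate assimilation genes *crnA*, *niiA* and *niaD* were not called, with differences of 0.22, −0.16 and 0.32.

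The list of conidiation and development genes had 3 of 29 called higher, against 5.22% of all members, and none lower, with a median of 0.25. *fluG* (AN4819), which starts conidiation, had 35.4 and 84.5 in the parent, 41.4 and 41.1 in Δ*cnaB*, and 56.5 and 38.5 in the double deletion, a difference of 1.53. Only the parent had a higher value with salt. *tmpA* (AN0055), a membrane oxidoreductase gene of the same process, had 36.4 and 70.3, 4.50 and 2.49, and 7.67 and 4.16 (1.82), so that both parent values exceeded all 4 others. *esdC* (AN9121), a gene of early sexual development, had 165 and 417, 658 and 341, and 577 and 576 (1.81).

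Genes for enzymes that break down plant polysaccharides had 3 of 11 called higher, against 5.22% of all members, and none lower, with a median of 0.46. *faeB-2* (AN1772), a feruloyl esterase gene by its symbol, had 3.23 and 115 in the parent, 2.50 and 13.9 in Δ*cnaB*, and 2.47 and 14.9 in the double deletion. The ratio was 35.6-fold in the parent and 5.57-fold and 6.02-fold in the deletion strains, and the strains began at like values (difference 2.62, limma adjusted p = 0.0149). *xlnD* (AN2359), a xylosidase gene, had 13.0 and 51.7, 14.4 and 19.0, and 15.04 and 23.8 (1.46). *aguA* (AN9286), a glucuronidase gene, had 3.28 and 11.2, 4.24 and 6.16, and 5.03 and 7.89 (1.17, limma adjusted p = 0.0914).

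Of 16 heat shock and chaperone genes, 2 were called higher, 13 were above 0, and the median was 0.41. Over all members 5.22% were called higher and 4132 of 7867 were above 0, so the calls in this list and the single calls among cell wall and siderophore genes are near that share. The mitochondrial chaperone gene *hsp78* (AN1163) had 371 and 321 in the parent, 658 and 267 in Δ*cnaB*, and 1034 and 430 in the double deletion (1.08). *awh11* (AN3725) was low throughout, between 2.03 and 8.54 (1.71). Of 11 cell wall genes, 1 was called higher, *rlmA* (AN2984), a transcription factor of the cell wall integrity pathway in *Aspergillus* species, with 60.7 and 54.3 in the parent, 102 and 40.5 in Δ*cnaB*, and 132 and 54.6 in the double deletion (1.14, limma adjusted p = 0.0225). As for *hsp78*, the parent values without and with salt were near each other, and those of the deletion strains were not. Of 11 siderophore and iron genes, 1 was called higher, *sidC* (AN0607), the synthetase of the intracellular siderophore, at 1.74.

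The osmotic stress genes showed no call in either direction. None of 10 HOG pathway and stress regulators was called, with a median of 0.14. Over all members 5.22% were called higher and 5.44% lower, so no call in lists of 10 or 5 genes is near that share. The kinase gene *sakA* (AN1017) had 179 and 1196 in the parent, 277 and 1367 in Δ*cnaB*, and 265 and 1376 in the double deletion (0.40, limma adjusted p = 0.255), and the transcription factor gene *atfA* (AN2911) had a difference of −0.05. The response regulator gene *sskA* (AN7697) was nearest to the limit, at 0.97 with a limma adjusted p of 0.0315. None of 5 glycerol, trehalose and mannitol genes was called. Glycerol dehydrogenase *gldB* (AN5563) had 564 and 5295, 649 and 5209, and 656 and 4703 (0.31), and the trehalose genes *orlA* (AN3441) and *treA* (AN9340) both had −0.01. With 1 library per group, these values do not show that the strains respond alike.

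Peroxisome and autophagy genes had no call either, against 5.22% of all members called higher and 5.44% called lower. All 17 were above 0, against 4132 of 7867 members, with a median of 0.51 (0.12 to 0.92). In the parent the median ratio was 1.06, against 0.61 in Δ*cnaB* and 0.51 in the double deletion. The largest differences were those of the peroxisome import factor gene *pex19* (AN4899, 0.92) and the autophagy gene *atg2* (AN5491, 0.76), which had 51.1 and 291 in the parent, 69.6 and 268 in Δ*cnaB*, and 90.9 and 265 in the double deletion. The lists for the cell cycle and mitosis (18 members), proteasome and ubiquitin (21), chromatin (23) and amino acid synthesis (16) had no call by the limit. Neither had those for nuclear pore, splicing and RNA turnover (18, Mediator genes among them) and hyphal polarity and secretion (16). The medians of these lists lay between −0.17 and −0.06.

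**Figure D5:**
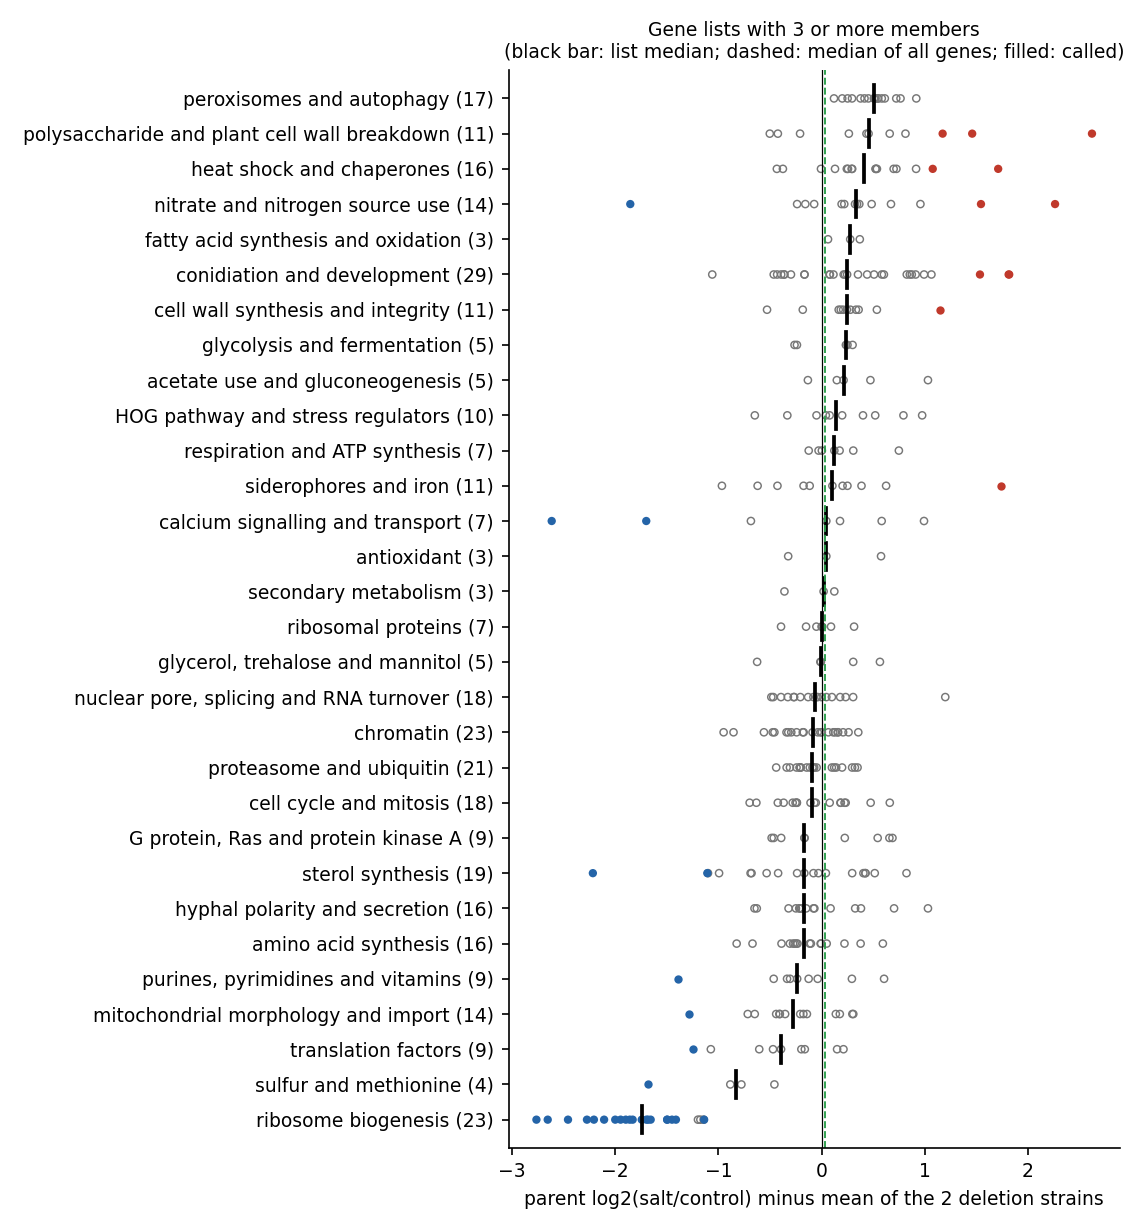
Difference between the parent log2 ratio and the mean of the deletion strains for each gene of the lists with 3 or more members (number in brackets). Filled points are called genes, black bars list medians and the dashed line the median of all members, 0.04. The ribosome biogenesis list has the lowest median, −1.74, and the medians of the others run from −0.83 to 0.51.

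Among the genes with the largest differences, most have no symbol in the reference. *AN3117* had 64.5 and 648 in the parent without and with salt, 77.1 and 93.7 in Δ*cnaB*, and 102 and 89.8 in the double deletion. *AN8741* had 22.7 and 152, 35.0 and 36.1, and 40.9 and 42.8. In both, the strains were near each other without salt, and only the parent had a raised value with salt, 10.0-fold and 6.71-fold (differences 3.28 and 2.69, limma adjusted p = 0.00931 for each). *AN5540* had 25.7 and 373 in the parent, 4.67 and 8.41 in Δ*cnaB*, and 8.79 and 8.14 in the double deletion (3.49), and *AN1540* had 3.95 and 23.4, 1.69 and 1.43, and 3.24 and 1.34 (3.33). For these genes no induction beyond the limit was seen without *cnaB*. Other genes had lower values with salt in the deletion strains and not in the parent. *AN5659* had 3.37 and 4.70 in the parent, 20.4 and 2.80 in Δ*cnaB*, and 28.6 and 4.95 in the double deletion (3.18), and *AN12015* had 3.48 and 8.32, 18.6 and 5.42, and 22.4 and 7.25 (2.96).

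A contrasting group was induced in every strain, from a lower start in the parent. *AN0045* had 47.6 and 8557 in the parent, 278 and 7288 in Δ*cnaB*, and 294 and 8068 in the double deletion (2.74). *coaT* (AN1547), a coenzyme A transferase gene, had 4.41 and 1130, 14.7 and 989, and 18.5 and 798 (2.25). The strains lay closer together with salt than without it. The same held for *erdS* (AN0314), which makes an aspartylated sterol (130 and 1098, 699 and 1466, 874 and 1646, difference 2.09), *yme2* (AN10634, 1.90), the phospholipase D gene *pldA* (AN6712, 1.51) and *nfr1* (AN9103, 1.62). *osm1* (AN1543), a fumarate reductase in yeast, was raised by salt in the parent alone, from 222 to 734, but stood at 868 and 905 in Δ*cnaB* and 1464 and 947 in the double deletion (2.01).

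Regulators were also among the called genes. *amdX* (AN9492), which acts on the acetamidase gene, had 81.0 and 423 in the parent, 158 and 238 in Δ*cnaB*, and 208 and 233 in the double deletion (2.01). *sebA* (AN1652), a stress transcription factor in *Aspergillus fumigatus*, had 427 and 444 in the parent, 607 and 236 in Δ*cnaB*, and 817 and 274 in the double deletion (1.52). Its value with salt was the highest in the parent, and its value without salt the lowest there. *afeA* (AN0054), beside *tmpA* by its identifier, had 356 and 424 in the parent, 68.6 and 19.4 in Δ*cnaB*, and 108 and 36.7 in the double deletion (1.94).

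In the other direction, *AN8218* had the largest difference. Its values were 189 and 892 in the parent, 2.15 and 196 in Δ*cnaB*, and 2.43 and 230 in the double deletion (−4.30, limma adjusted p = 0.00241). The parent was 82.6-fold above the mean of the deletion strains without salt and 4.19-fold with salt, so induction was larger in the deletion strains while the level stayed lower. *AN10218* showed induction in the deletion strains alone, with 15.9 and 14.9 in the parent, 26.3 and 286 in Δ*cnaB*, and 23.5 and 219 in the double deletion (−3.43, limma adjusted p = 0.00748). *AN1472* had 17.7 and 34.1, 1.59 and 34.2, and 2.91 and 44.2 (−3.23), a pattern like that of *pmcB*. *AN1434*, *AN7674*, *AN8834*, *AN2077*, *AN1474* and *AN4868* had a pattern like that of *dbp9*, with values without salt of 24.2 to 69.2 in the parent and 4.77 to 27.8 in the deletion strains and differences from −3.20 to −2.75. *ptyA* (AN5767, −2.26) rested on values between 1.01 and 4.28.

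Called genes were also compared by position, which the choice of members did not use. In the order of the reference, 3 runs of 3 adjacent genes were called higher and 3 runs called lower, and none was longer. Over all members 5.22% were called higher and 5.44% lower. How many such runs a random order would give was not tested. The runs called higher were *AN9492* (*amdX*), *AN7247* and *AN7246*, then *AN9193*, *AN9192* and *AN9191*, and *AN1714*, *AN1715* and *AN1716*. Those called lower were *AN3828*, *AN3827* (*nop7*) and *AN3826*, then *AN8981*, *AN8980* and *AN8979*, and *AN1750* (*mak5*), *AN1751* and *AN1752*. In the second of these, *AN8979* had 84.0 and 135 in the parent, 56.6 and 321 in Δ*cnaB*, and 26.3 and 368 in the double deletion (−2.47).

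The identifiers from *AN7873* to *AN7903*, a stretch chosen after its values were seen, held 17 members, of which 10 were called higher and 1 lower. Over all members these shares were 5.22% and 5.44%. The 10 genes had a median of 3.03 in the parent without salt and 5.14 with it, 311 and 76.4 in Δ*cnaB*, and 176 and 45.4 in the double deletion. The values in the parent were thus low in both conditions, and the medians of the deletion strains were lower with salt than without it. The first of these by size of the difference, *AN7874* (4.35), *AN7873* (4.14), *AN7880* (3.65) and *AN7884* (2.99), were also among the leading genes of all members. In *AN7880* the parent went from 1.27 to 12.6, against 127 and 106 in Δ*cnaB* and 73.2 and 54.9 in the double deletion. *AN7893* had 2.39 and 3.86, 3780 and 1253, and 2708 and 871 (2.31). *AN7897* had 2.14 and 2.24, 2617 and 422, and 2310 and 456 (2.55). The gene called lower, *AN7877*, had 125 and 39.2, 1181 and 2091, and 795 and 1447 (−2.52). Farther on in the stretch, *AN7895* had 6.31 and 9.54, 3657 and 4576, and 2101 and 3538 and was not called (0.06).

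Of other genes that the study names by identifier, *AN3085* and *AN6881* were called higher. *AN3085* had 28.1 and 1972 in the parent, 152 and 1604 in Δ*cnaB*, and 70.6 and 1522 in the double deletion (2.22), and *AN6881* had 21.4 and 1123, 98.1 and 1840, and 105 and 1623 (1.63). *AN9168*, *AN5593*, *AN6718*, *AN8035*, *AN9528*, *AN2435*, *AN8907* and *AN8815* were not called, with differences from −0.51 to 0.30. A further 5 genes, among them *AN8585*, *AN10499* and *AN3210*, had no value above 0 in the libraries without salt and so were not members. With salt the parent had 35.6 of *AN2841*, also of these, against 14.7 in Δ*cnaB* and 17.8 in the double deletion, while *AN2638*, the last of them, had 21.3, 117 and 61.5.

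Calls were spread over the range of levels, though not evenly. When the members were ordered by their geometric mean over the 6 libraries and cut into 4 groups of equal size, the share called higher was 6.46% in the group with the lowest levels, then 4.78%, 4.22% and 5.44%. The share called lower was 9.10%, 8.44%, 2.44% and 1.78%. Genes with a lower ratio in the parent were thus more frequent in the groups with lower levels.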

How the data were processed

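RNA of 6 cultures was sequenced by the authors as paired-end Illumina libraries. They removed low-quality reads, mapped the rest with TopHat (2 mismatches) to assembly ASM14920v1, quantified genes with RSEM and normalized by TMM. The deposited signal values are TMM-normalized RPM, scaled between the libraries of a strain. Per the file headers these are read counts, yet they are not whole. Anything under 1 is listed as 0, and 477 to 557 genes per strain have no value. The planned models for count data were therefore not run.

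Members, at 1 or above in all 6 libraries, were compared on log2(value) with no constant added. A gene was called when the parent ratio differed from that of each deletion strain by more than 1 in the same direction. The interaction of salt with *cnaB* was tested in all 6 libraries with limma 3.58.1 in R 4.3.3 (two-sided, strain as a block, eBayes with trend), with Benjamini-Hochberg adjustment over all members. The steps were also run on simulated data with independent errors in the 6 libraries. Such data hold no effect of a single culture, so that run says nothing about the lone pair of parent libraries. Python 3.11.15, numpy 2.4.6, pandas 2.3.3 and matplotlib 3.10.9 were used for the rest.

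The members and gene lists were chosen with earlier results of these data known. The text names, in each direction, the 12 called genes with the largest smaller difference, the first 15 such genes with a symbol, called list members and genes the study names. Symbols were taken from a RefSeq gene table (assembly ASM1142v1), in which 10037 of 10957 identifiers matched and 779 had a symbol. This build differs from that of the authors, so no coordinates are given, and it has no product names. Promoters were not analysed here. The alternatives were other constants, filters, scalings and limits, and each deletion strain left out.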

Additional observations from a re-analysis of the deposited data

Results flagged for a closer look

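In the limma test of the difference between the salt responses of the parent and the deletion strains, 422 genes had a higher and 396 a lower ratio in the parent, at an adjusted p under 0.05.

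In 13 genes the parent and the mean of the deletion strains responded to salt by more than 1 (log2) in opposite directions. For 10 the ratio was higher in the parent, with differences of 5.38 (*AN5170*), 4.35 (*AN7874*), 4.14 (*AN7873*), 3.79 (*AN0964*), 3.15 (*AN2913*), 3.01 (*AN1714*), 2.96 (*AN12015*), 2.42 (*AN20052*), 2.29 (*AN1242*, *nrps1*) and 2.08 (*AN2388*). For 3 it was lower, with −4.09 (*AN20055*), −3.98 (*AN0805*) and −2.55 (*AN0759*). The limma adjusted p was under 0.05 for 8 of the 13. It was above it for *AN0759*, *AN1242*, *AN20052*, *AN2913* and *AN0964*. In *AN0759*, *AN1242*, *AN20052*, *AN2913*, *AN2388* and *AN1714* only Δ*cnaB* passed 1 against the parent direction. The ratios of Δ*cnaB*Δ*cchA* there were 0.15, −0.15, −0.24, −0.45, −0.46 and −0.60. In the other genes both deletion strains passed it. Some of the 13 rest on parent values near 1, below which values are listed as 0. In the parent without and with salt, *AN7874* had 1.00 and 2.35, *AN20052* 1.14 and 3.02, and *AN1242* 1.65 and 3.53.

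*AN5170* had 1.38 without and 10.8 with salt in the parent, 51.9 and 4.87 in Δ*cnaB*, and 60.2 and 22.5 in Δ*cnaB*Δ*cchA*. *AN20055* had 57.0 and 8.19, 7.69 and 21.1, and 6.21 and 13.4. In both genes the strains lay farther apart without salt than with it.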

How the results depend on the processing

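The count of genes with a higher ratio in the parent, 411, became 249 with a filter of at least 5 in all 6 libraries and 124 with one of 20, 1250 and 43 with limits of 0.5 and 2, and 631 without Δ*cnaB* and 636 without Δ*cnaB*Δ*cchA*, where a gene needs to pass against 1 strain only. The count of 428 with a lower ratio became 265 and 64 with these filters and 1071 and 55 with these limits. Under the other constants, scalings and filters both counts stayed within 1.5 times. The number of ribosome biogenesis genes called lower was 20 of 23, 4 with a limit of 2, and 2 of the 3 genes left with a filter of 20. This count was added after seeing the data. All 23 were below 0 in the 12 settings that kept them all, by the mean over both deletion strains. The settings that change only the limit or leave out a strain repeat the main value here and add nothing to this count. The median difference of 0.04 was 0.0872 with library totals, 0.00705 with a median of ratios and 0.0174 without Δ*cnaB*. The limma counts of 422 and 396 became 55 and 94 without the trend in eBayes, and the higher count became 641 with library totals. With genes of at least 1 in any library and log2(value + 1), limma called 0 in either direction, while 1097 and 1109 had an unadjusted p under 0.05. The smallest adjusted p there was 0.158. Of the differences of named genes under other settings, 423 of 470 moved by no more than the spread between the deletion strains and 47 moved by more. With 1 deletion strain left out a gene stays within that spread by construction, so those settings say nothing about stability. Only called genes could be labelled as reversed, and 0 were. Leaving out a strain cannot reverse these. The sign of uncalled genes could change, as in *AN9168* (−0.22, and 0.25 against Δ*cnaB* alone). Of 165 list medians, 126 stayed within the spread and 39 moved by more, and reversal was not checked for them.

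The edgeR and DESeq2 alternatives were not run, since the files hold no counts. The libraries without and with salt were paired by strain in the limma fit, where strain is the block. The labels give no replicate numbers, so no further pairing was tried. The 1 library per group limits every value, and the lower limit of 1 in the files hides changes of weakly expressed genes.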

Other observations

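The catalase gene *catA* (AN8637) was no member, as it was listed at 0 in Δ*cnaB*Δ*cchA* without salt. It had 3.95 without and 1787 with salt in the parent, 23.5 and 3206 in Δ*cnaB*, and 11.2 with salt in Δ*cnaB*Δ*cchA*. The deletion strains thus stood far apart for this gene, and the parent was nearer to Δ*cnaB*. The siderophore gene *sidI* (AN0609), also no member, had 23.6 and 2.55 in the parent and 6.84 and 2.87 in the deletion strains without salt, and was listed at 0 in both of them with salt.

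*AN0531* had no value above 0 in the parent. It had 274 and 445 in Δ*cnaB* and 135 and 282 in Δ*cnaB*Δ*cchA*. *AN7902* and *AN7903* were listed at 0 in the parent without salt and had 1.64 and 1.02 there with salt, against 1489 and 193 and 1298 and 113 in Δ*cnaB* and 1274 and 205 and 986 and 106 in Δ*cnaB*Δ*cchA*. The α-glucan synthase gene *ags1* (AN3307), which no list held, was called higher at 1.60, with 376 and 91.4 in the parent, 727 and 49.2 in Δ*cnaB*, and 934 and 88.3 in Δ*cnaB*Δ*cchA*. It was named after its values were seen, as was the transcription factor gene *atfB* (AN6849, 1.16), with 12.2 and 49.2, 55.1 and 98.7, and 46.7 and 84.5.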
